A study of Rattus norvegicus with 14 samples.

Results

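Oxidative phosphorylation genes code for the subunits of the mitochondrial respiratory chain and of the ATP synthase that it drives. On these rat arrays they were taken to be every probe whose symbol in the platform annotation belongs to complex I (Nduf genes), complex II (Sdh genes), complex III (Uqcr genes and Cyc1), cytochrome c (Cycs), complex IV (Cox genes of subunits 4 to 8) or complex V (Atp5 genes). That choice gave 32 of the 4952 probes and, after probes of 1 gene were averaged, 30 of the 4156 genes with a symbol. The 4682 features tested hold these genes and the probes that name no single gene. Complex I had 6 measured genes, cytochrome c had 1, complex IV had 9 and complex V had 14. Complexes II and III had 0, and the respiratory chain genes of the mitochondrial genome had 0. All 30 genes had a value on every array, so no filter on low values removed any of them.

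RNA came from small intestine of rats aged 20 days that had been perfused with HG or HF, and each array carried RNA pairs in 2 channels. The labels leave HG and HF unexplained, and they are read here as solutions rich in glucose and in fructose, which rests on what is known of the study. Arrays with HG in channel 1 and HF in channel 2 numbered 5 at 4 h and 4 at 20 min. Another 3 arrays were self-hybridised with 4 h RNA, named 1HG, 3HG and 3HF after the RNA they hold, and serve here as the control for dye effects. Strain and sex are not given in the labels, no array carried unperfused tissue, and every RNA in these groups came from a perfused intestine. Nothing in the labels says that the numbered pairs came from separate rats, so p-values measure the spread between arrays, which may be technical. A second array of pair 2 at 4 h, whose title carries extra figures, and an array with labelling primers only were left out of the fit.

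Electrons from NADH enter the chain at complex I and those from succinate at complex II. They pass through complex III and cytochrome c to complex IV, which reduces oxygen, and the proton gradient built on the way drives complex V to make ATP. In the small intestine this ATP powers the sodium pump on which active absorption of glucose and other nutrients depends. Fructose enters the enterocyte by a facilitative transporter and is phosphorylated at a cost in ATP.

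The values are log ratios of the channels of an array, read as log2 and centred on the array's median. The sources used here do not say which channel a positive value favours. Slc2a5, the fructose transporter gene whose mRNA is known to be induced by fructose, had log ratios of 1.53, 1.62, 1.95, 1.84 and 1.33 at 4 h and of -0.38, -0.01, -0.43 and -0.44 at 20 min. A positive value is therefore likely to mean more RNA after HF, and a positive difference between the times a ratio shifted that way at 4 h, but every sign below is that of the deposited values. In tissue RNA, fewer cells of a type and less RNA per cell cannot be told apart.

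The same-RNA array 1HG stood apart from the others. Its log ratios had an SD of 1.39, and 228 of its probes lay more than 2 from 0. Of these, 227 were among the 1202 probes numbered up to 750 or above 4500. Of the 32 oxidative phosphorylation probes, 11 have such numbers, and 1HG gave 2.76 for Cox6c-ps1 and -1.69 for Atp5if1, against -0.38 and 0.50 for Cox6c-ps1 and -0.13 and 0.03 for Atp5if1 on 3HG and 3HF. Because the 3 groups share 1 estimate of the spread, this array also widens the errors of Cox6c-ps1 and Atp5if1 between 4 h and 20 min. The tissue label could not be checked by level, since ratios carry none.

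**Figure D1:**
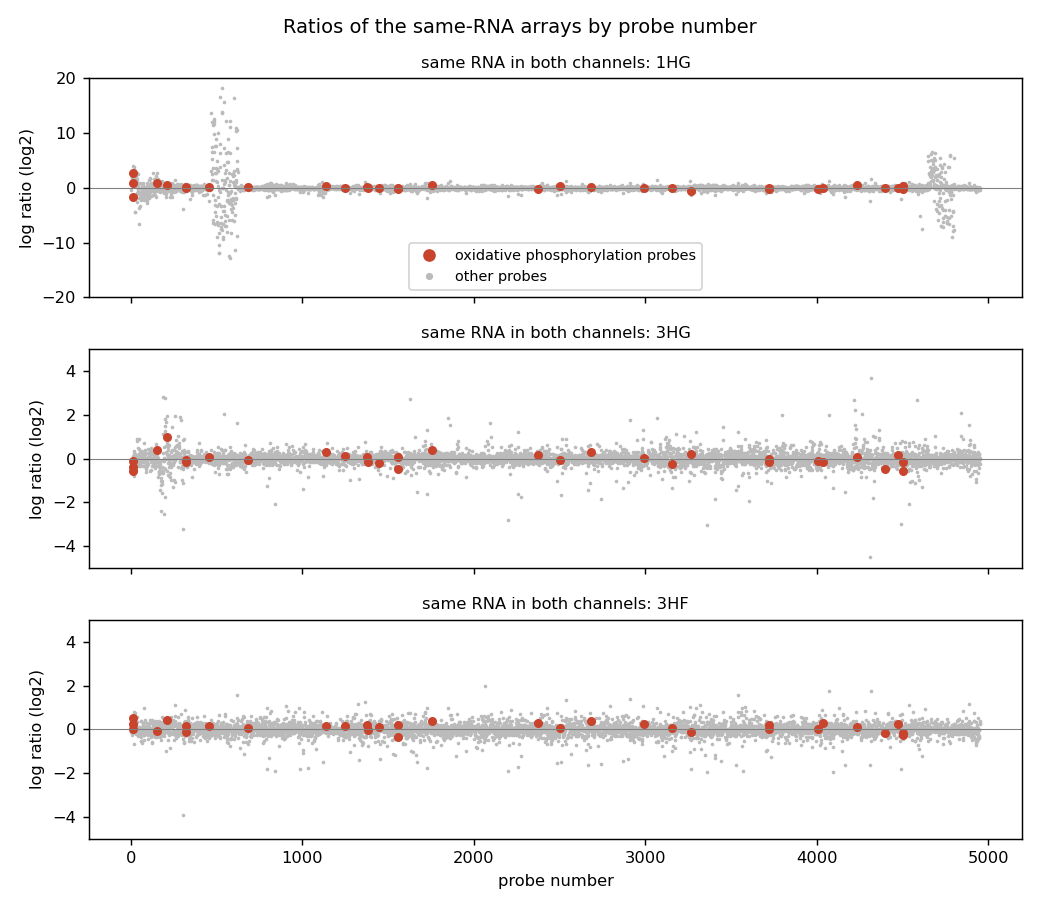
Log ratio of every probe (log2) against probe number on the 3 arrays with the same RNA in both channels, with the oxidative phosphorylation probes in red. The array 1HG, drawn on a wider axis, has 227 of its 228 values beyond 2 at the low and high probe numbers, where 11 of the 32 red probes lie.

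Between 4 h and 20 min, the log ratios of most oxidative phosphorylation genes lay higher at 4 h, by small amounts. The difference was above 0 for 23 of the 30 genes (76.7%), against 48% of all features, and its median was 0.14, against -0.01 for all features. No gene passed the test: 0 of 30 had a limma adjusted p below 0.05, where 0.598% of all features did. The largest difference among the 30 was 0.46 for Cox5a, and the smallest size among the 28 features that passed was 0.519. At an unadjusted p below 0.05 there were 10 genes, against 13.5% of all features. Of these, 9 were higher at 4 h (6.3% of all features) and 1 was lower (7.22% of all features). In 4 genes every 4 h array lay above every 20 min array (3.42% of all features), and in 0 genes every 4 h array lay below (3.12% of all features). The 30 genes' median lay at percentile 78.5 of the differences of all features. The 30 include the pseudogene symbols Ndufs6-ps1 and Cox6c-ps1. Without these, 21 of 28 genes (75%) were above 0, with a median of 0.13. Of the 28, 9 had an unadjusted p below 0.05, and in 3 every 4 h array lay above every 20 min array.

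Differences between 4 h and 20 min were more often above 0 than below in each complex that was measured. The median difference, 4 h minus 20 min, was 0.17 over complex I with 4 of 6 genes above 0, 0.15 over complex IV with 6 of 9, and 0.11 over complex V with 12 of 14. Complex I here includes Ndufs6-ps1 and the assembly factor Ndufaf3, and complex IV includes Cox6c-ps1. The complex IV median ran from 0.10 to 0.22 with each array left out. The complex V median rested largely on 4 h replicate 2, without which it was 0.01, and it was 0.18 without 4 h replicate 4. By array, the median log ratio of the 30 genes was 0.11, 0.21, 0.13, 0.07 and 0.10 at 4 h, against 0.01, 0.00, -0.04 and 0.06 at 20 min. On the same-RNA arrays it was -0.01 on 1HG, -0.07 on 3HG and 0.14 on 3HF. The medians at 4 h thus all lay above those at 20 min, the lowest by 0.07 against 0.06, while the same-RNA array 3HF reached the range of the 4 h arrays. The number of genes above 0 was 21, 25, 27, 19 and 20 at 4 h, 18, 16, 11 and 18 at 20 min, and 14, 13 and 22 on 1HG, 3HG and 3HF.

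**Figure D2:**
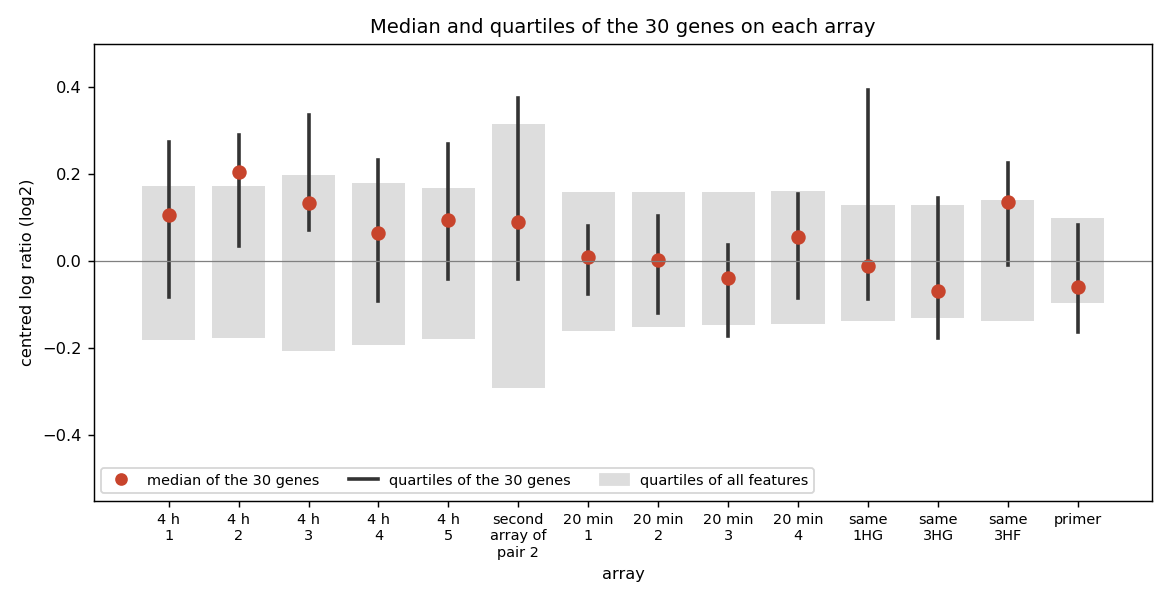
Median (red point) and quartiles (dark line) of the centred log ratios (log2) of the 30 genes on each of the 14 arrays, with the quartiles of all features as grey boxes. The medians of the 5 arrays at 4 h run from 0.07 to 0.21 and those of the 4 arrays at 20 min from -0.04 to 0.06, and the same-RNA array 3HF has 0.14.

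Complex I, the NADH dehydrogenase, was represented by 1 core subunit, 4 accessory subunits and 1 assembly factor. The accessory subunits include the pseudogene symbol Ndufs6-ps1. Ndufv2, a core subunit that carries an iron-sulphur cluster beside the flavin site, had log ratios of 0.15, 0.35, 0.34, 0.24 and 0.37 at 4 h, against 0.05, 0.00, 0.01 and 0.25 at 20 min. All were positive at 4 h, and 1 array at 20 min overlapped them. The difference was 0.21 ± 0.09 (SE; limma adjusted p = 0.322). The same-RNA arrays gave 0.35, 0.31 and 0.16 for this probe, as high as the arrays at 4 h, so that 4 h minus same RNA was 0.02 ± 0.10.

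Ndufs6-ps1 had the smallest p in complex I. Its log ratios were 0.12, 0.12, 0.27, 0.29 and 0.26 at 4 h, against -0.08, 0.09, -0.11 and -0.09 at 20 min and -0.01, -0.14 and -0.02 with the same RNA. Every 4 h array lay above every 20 min and same-RNA array, while the array with labelling primers only read 0.33. The difference was 0.26 ± 0.08 between 4 h and 20 min (SE; limma adjusted p = 0.187) and 0.27 ± 0.09 between 4 h and same RNA (adjusted p = 0.369). RefSeq holds this gene as a pseudogene that once carried the symbol Ndufs6, the zinc-binding accessory subunit, and whether the probe reads the pseudogene, the working gene or both was not tested.

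Ndufa5, an accessory subunit of the arm that reaches into the matrix, had 0.10, 0.19, 0.46, 0.11 and 0.12 at 4 h, against 0.04, -0.25, -0.27 and -0.01 at 20 min. The groups did not overlap, with 4 h replicate 3 well above the other 4 h arrays. The difference was 0.32 ± 0.14 (SE; limma adjusted p = 0.346). Its same-RNA values were 0.44, -0.17 and -0.16, and the high one came from 1HG.

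The other genes of complex I overlapped between the times. Ndufa10, an accessory subunit of the membrane arm, had 0.08, 0.01, -0.38, 0.05 and 0.24 at 4 h and -0.46, -0.19, 0.06 and 0.10 at 20 min, a difference of 0.12 ± 0.20 (SE). For Ndufv3, a small accessory subunit beside the flavin site, the difference was -0.02 ± 0.13, and for Ndufaf3, an assembly factor that is no part of the finished complex, it was -0.09 ± 0.14. Ndufaf3 had 1 array at 4 h of -0.39 and 3 between 0.21 and 0.24. Cycs, the soluble carrier that brings electrons to complex IV, had -0.04, -0.33, 0.10, 0.01 and 0.29 at 4 h, against -0.08, -0.27, -0.20 and 0.18 at 20 min. Its values crossed 0 at both times, and the difference was 0.10 ± 0.14 (limma adjusted p = 0.841), or 0.03 without 4 h replicate 5 and 0.19 without 20 min replicate 4.

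Complex IV, cytochrome c oxidase, held the largest differences. They were in subunits coded in the nucleus that surround the catalytic core. Cox4i1, Cox5a and Cox8b had an unadjusted p below 0.05. Cox5b, Cox6a1 and Cox8a had differences of -0.06 ± 0.11, -0.07 ± 0.13 and -0.12 ± 0.12 (SE), each within 1 SE of 0. The start regions of Cox4i1, Cox5a and the isoform pair Cox8b and Cox8a are printed here. The differences of the 2 isoforms had opposite signs, and Cox4i1 and Cox8a carry the motif most often found. Each runs 5′ to 3′ on the gene's strand, with 250 bases before and 50 from the annotated start (RefSeq, GRCr8). Capitals mark CTTCCGG or its reverse complement, the core of the sites of the nuclear respiratory factor GABP, and in Cox8b they mark TATAAA. Cox4i1 is at chr19:65630133-65630432 on the plus strand, Cox5a at chr8:66818034-66818333 on the plus strand, Cox8b at chr1:205408224-205408523 on the minus strand and Cox8a at chr1:213833574-213833873 on the minus strand.
Cox4i1: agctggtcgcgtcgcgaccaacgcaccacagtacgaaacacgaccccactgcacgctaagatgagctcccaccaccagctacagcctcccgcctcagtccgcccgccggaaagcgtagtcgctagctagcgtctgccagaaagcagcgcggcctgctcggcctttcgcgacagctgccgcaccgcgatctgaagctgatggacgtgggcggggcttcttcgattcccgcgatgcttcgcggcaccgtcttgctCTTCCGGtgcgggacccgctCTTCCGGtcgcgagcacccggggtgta
Cox5a: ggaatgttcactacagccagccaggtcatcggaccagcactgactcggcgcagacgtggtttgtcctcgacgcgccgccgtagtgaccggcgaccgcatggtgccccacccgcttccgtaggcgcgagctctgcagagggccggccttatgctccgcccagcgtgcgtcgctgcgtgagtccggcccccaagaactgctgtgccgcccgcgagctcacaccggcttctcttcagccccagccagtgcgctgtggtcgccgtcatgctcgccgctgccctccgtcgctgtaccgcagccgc
Cox8b: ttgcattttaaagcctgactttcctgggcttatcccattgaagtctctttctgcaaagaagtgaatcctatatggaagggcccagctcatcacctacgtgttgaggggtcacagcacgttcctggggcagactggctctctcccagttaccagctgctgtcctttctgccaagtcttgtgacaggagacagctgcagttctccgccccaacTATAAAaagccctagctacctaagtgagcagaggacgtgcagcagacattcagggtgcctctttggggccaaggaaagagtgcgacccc
Cox8a: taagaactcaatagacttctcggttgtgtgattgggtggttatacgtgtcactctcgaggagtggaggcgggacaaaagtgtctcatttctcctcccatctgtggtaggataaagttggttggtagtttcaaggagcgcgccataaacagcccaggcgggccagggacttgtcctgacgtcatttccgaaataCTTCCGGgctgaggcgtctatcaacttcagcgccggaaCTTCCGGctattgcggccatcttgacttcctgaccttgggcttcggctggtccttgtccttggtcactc

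Cox4i1 holds CTTCCGG at bases 4 to 10 and 24 to 30 after its start, and Cox8a holds it 57 to 51 and 19 to 13 bases before its start. Cox8b, the muscle-type isoform, has TATAAA 39 to 34 bases before its start and no CTTCCGG. Cox5a matched none of the 4 motifs searched. A start region was found for 25 of the 30 genes, and both strands were read. CTTCCGG was present in 7 of the 25 (28%), against 9.14% of all 27457 start regions of this length: Cox4i1, Cox5b, Cox8a, Atp5f1a, Atp5me, Atp5mk and Atp5pf. The core of the NRF1 site, GCGCATGCG, was in 4 (16%, against 1.61%), namely Cycs, Atp5mc2, Atp5me and Atp5po. In 3 of those 4 it matched on both strands at overlapping positions, since the word is nearly its own reverse complement. The element TCAAGGTCA of the estrogen-related receptors was in 0 (against 0.371%), and TATAAA was in 2 (8%, against 14.3%), Cox8b and Atp5mk. The median GC content was 59.7%, against 52.3% in all start regions. A match is a description of these letters only. Among the 10 genes with an unadjusted p below 0.05, of which Ndufs6-ps1 had no start region to search, CTTCCGG was in Cox4i1 and Atp5f1a. It was equally present in Cox5b and Cox8a, whose differences were below 0.

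Cox4i1, the widely expressed form of the largest nuclear-coded subunit, had log ratios of 0.39, 0.30, 0.49, 0.39 and -0.04 at 4 h, against -0.06, -0.09, -0.30 and 0.00 at 20 min. In 4 arrays at 4 h it lay far above the 20 min range, and 4 h replicate 5 lay within it. The difference was 0.42 ± 0.12, a factor of 1.33 in the ratio (SE; limma adjusted p = 0.1375). Without that replicate, whose value was the lowest of the 5, it was 0.50 (adjusted p = 0.0444), and Cox4i1 passed the test. Leaving out the array that most opposes a difference enlarges it, so this pass is no support for a difference in Cox4i1. In the other 11 of the 12 fits with a single array left out, 0 of the 30 genes passed. Over those 12 fits, the number of all features that passed ran from 4 to 43. For Cox4i1 the same-RNA arrays gave -0.01, 0.12 and 0.15, between the 2 times.

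Cox5a, a subunit on the matrix side, had 0.55, 0.07, 0.61, 0.53 and 0.67 at 4 h, against 0.00, -0.10, 0.13 and 0.09 at 20 min. Here it was 4 h replicate 2 that lay within the 20 min range, apart from the other 4. The difference was 0.46 ± 0.16, a factor of 1.37 (SE; limma adjusted p = 0.224). Cox8b had 0.37, 0.14, 0.59, 0.08 and 0.36 at 4 h, against 0.07, -0.13, -0.30 and 0.05 at 20 min. Its groups did not overlap, by the narrow margin of 0.08 against 0.07. The difference was 0.38 ± 0.14 (adjusted p = 0.232).

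Cox8a, the isoform found in most tissues, had 0.14, -0.29, 0.15, 0.04 and -0.06 at 4 h, against 0.22, 0.03, -0.04 and 0.24 at 20 min, a difference of -0.12 ± 0.12 (SE). Both isoforms of the other pair overlapped between the times. The muscle-type Cox6a2 had 0.48, 0.25, 0.03, 0.85 and -0.25 at 4 h, the widest scatter among the complex IV genes at that time (SD 0.423), against 0.01, 0.06, 0.14 and 0.28 at 20 min. Its difference was 0.15 ± 0.18, and 0.00 without 4 h replicate 4 and 0.28 without 4 h replicate 5. The difference of the common form Cox6a1 was -0.07 ± 0.13. Cox6a1 had 0.09, 0.03, 0.15, -0.38 and 0.14 at 4 h, against -0.16, 0.14, 0.12 and 0.21 at 20 min.

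Cox6c, a small membrane subunit, was measured by 3 probes, which did not point the same way. Their differences were -0.13 ± 0.09, 0.33 ± 0.18 and 0.19 ± 0.10 (SE; limma adjusted p 0.598, 0.470 and 0.476), and their mean gave 0.13 ± 0.09. The copy Cox6c-ps1, which RefSeq holds as a transcribed pseudogene, had 0.26 ± 0.46. Its 4 h values of -0.15, 0.22, 0.26, 0.15 and 0.35 stood against -0.10, -0.11, -0.02 and -0.16 at 20 min, and its wide error comes with the value of 2.76 on 1HG. How far probes of such near copies read each other's RNA was not tested. Cox5b, a zinc-binding subunit, had a difference of -0.06 ± 0.11, with 3 arrays at 4 h between -0.27 and -0.17.

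**Figure D3:**
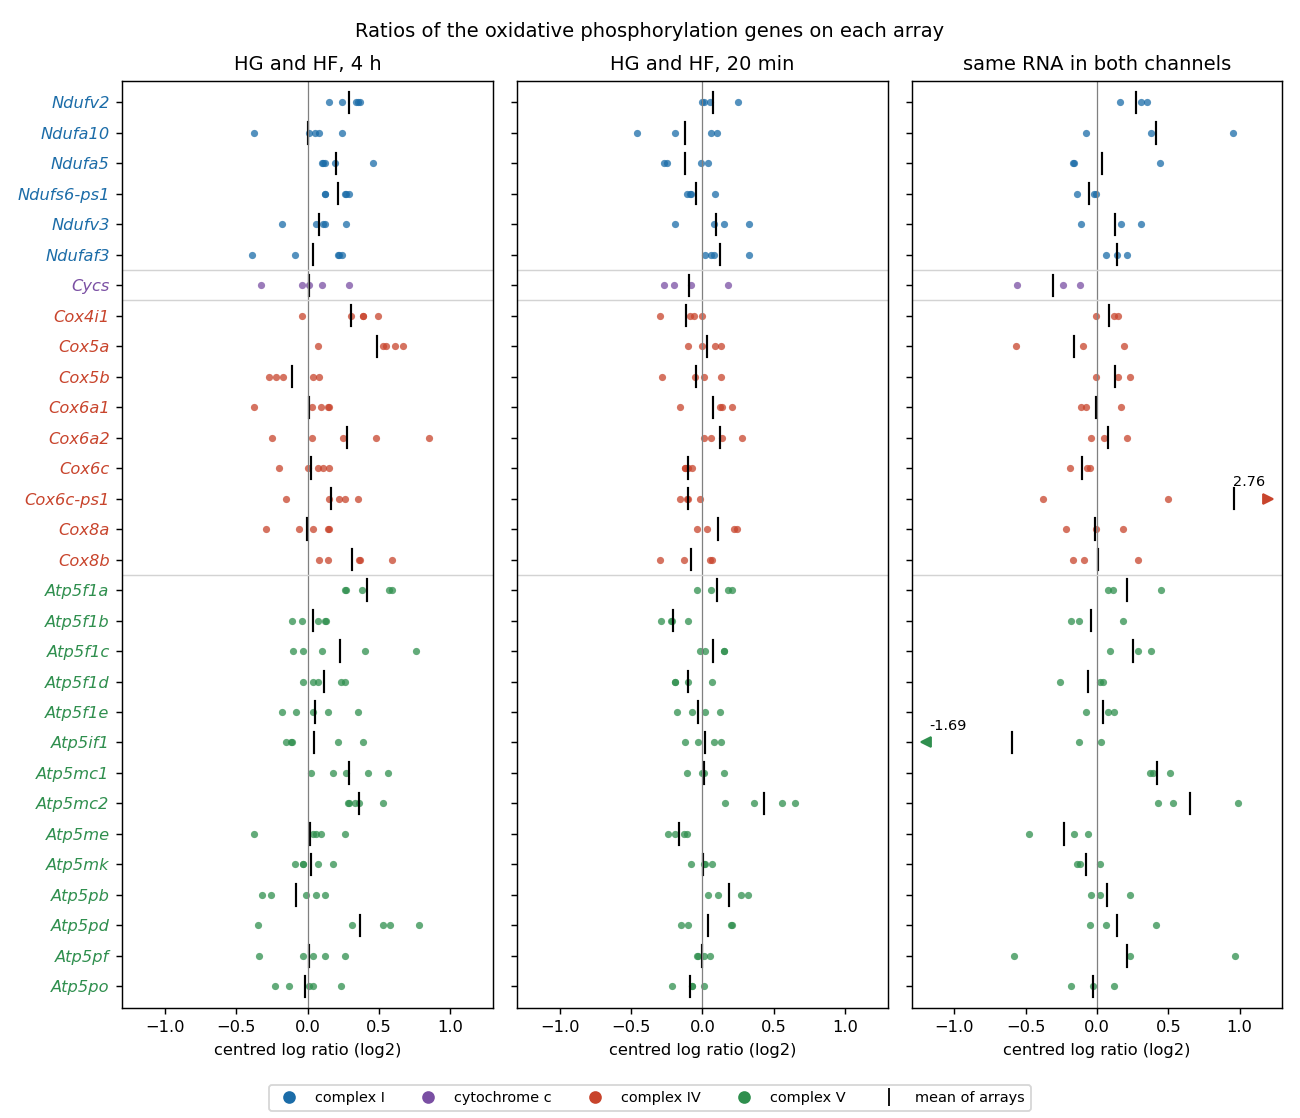
Centred log ratio (log2) of each of the 30 genes on each array at 4 h, at 20 min and with the same RNA in both channels, one point per array, with bars at the mean; arrowheads mark 2 values of the array 1HG beyond the axis. Cox5a has 4 of 5 points between 0.53 and 0.67 at 4 h and all 4 points between -0.10 and 0.13 at 20 min.

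Complex V, the ATP synthase, was the best covered, with all 5 subunits of the catalytic F1 head, 8 genes of the membrane part and stalk, and the inhibitor Atp5if1. The F1 subunits had differences above 0 in 5 of 5 genes (median 0.22), and the membrane and stalk subunits in 6 of 8 (median 0.04). No test of the difference between those subgroups was made.

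Atp5f1a, the alpha subunit of the head, had 0.38, 0.26, 0.59, 0.57 and 0.27 at 4 h, against 0.21, 0.18, -0.04 and 0.06 at 20 min. The groups did not overlap, and the difference was 0.31 ± 0.11 (SE; limma adjusted p = 0.249). The same-RNA array 1HG gave 0.45 for it, within the 4 h range, while 3HG and 3HF gave 0.08 and 0.11. Atp5f1b, the beta subunit that holds the catalytic sites, had 0.13, -0.04, 0.12, -0.11 and 0.07 at 4 h, against -0.10, -0.21, -0.22 and -0.29 at 20 min. It was near 0 at 4 h and below 0 on all arrays at 20 min, and the difference was 0.24 ± 0.10 (adjusted p = 0.314). The remaining head subunits were Atp5f1d, with 0.22 ± 0.10, Atp5f1c, with 0.15 ± 0.16, and Atp5f1e, with 0.08 ± 0.12. Atp5f1c, the gamma subunit of the rotating shaft, had its 4 h values spread between -0.10 and 0.76.

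Atp5mc1 and Atp5mc2 code for the same mature subunit of the membrane ring and had different values. Atp5mc1 had 0.42, 0.56, 0.02, 0.18 and 0.27 at 4 h, against 0.00, 0.01, -0.11 and 0.15 at 20 min, a difference of 0.28 ± 0.11 (SE; limma adjusted p = 0.294). Its same-RNA values were 0.51, 0.39 and 0.37, within the range of its ratios at 4 h and above all those at 20 min. Whether a dye effect of the probe accounts for them was not tested. Atp5mc2 had 0.29, 0.53, 0.33, 0.28 and 0.36 at 4 h, 0.36, 0.56, 0.65 and 0.16 at 20 min and 0.53, 0.99 and 0.43 with the same RNA. All 12 values were positive, whichever RNAs were compared, and the difference between the times was -0.07 ± 0.13.

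The 1 gene of the 10 that was lower at 4 h was Atp5pb, the subunit b of the stalk that holds the head in place. It had -0.26, -0.32, -0.01, 0.12 and 0.06 at 4 h, against 0.27, 0.11, 0.04 and 0.32 at 20 min, a difference of -0.27 ± 0.12 (SE; limma adjusted p = 0.343). The times overlapped, with 2 arrays at 4 h in the 20 min range. The other stalk subunits had differences above 0: Atp5pd had 0.33 ± 0.20, Atp5po 0.07 ± 0.11 and Atp5pf 0.01 ± 0.24. Atp5pd was uneven at 4 h, with 0.31, 0.53, 0.78, 0.58 and -0.35. The small membrane subunits Atp5me and Atp5mk had 0.18 ± 0.13 and 0.02 ± 0.08, and Atp5if1, which binds and stops the head when the proton gradient fails, had 0.03 ± 0.29.

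**Figure D4:**
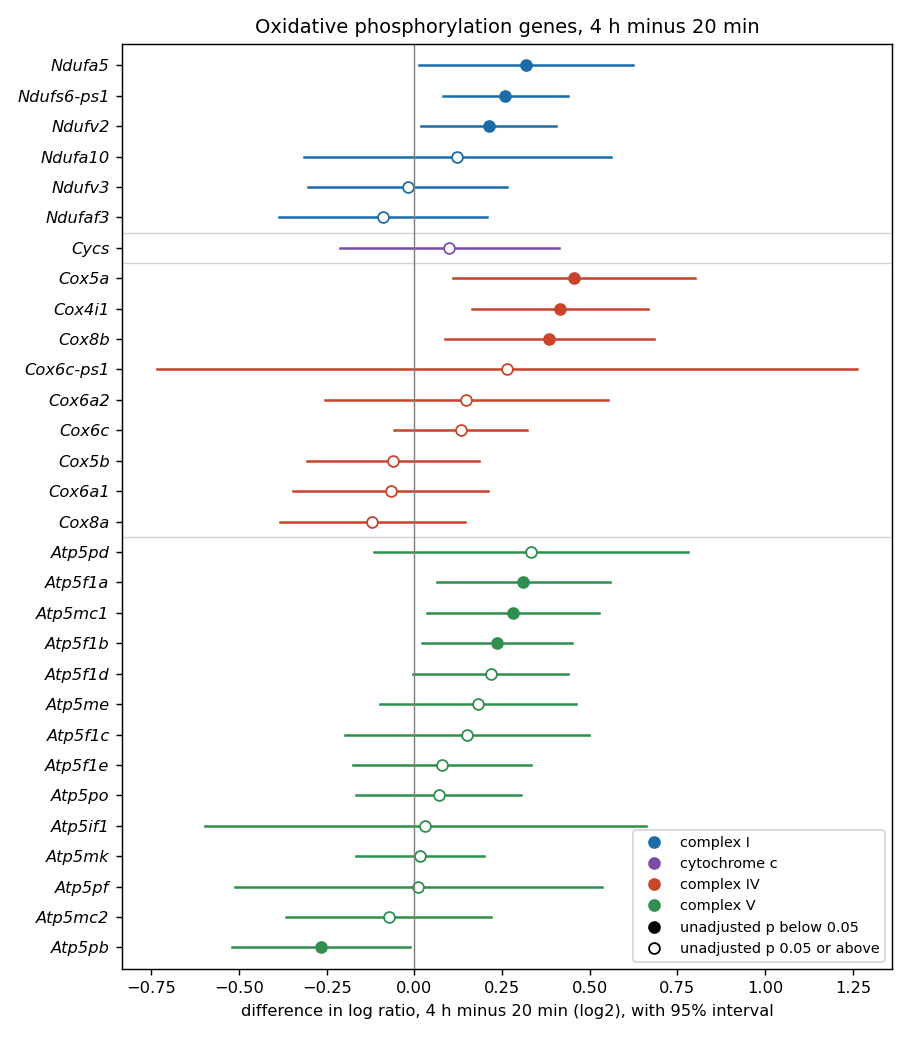
Difference in log ratio, 4 h minus 20 min (log2), of the 30 genes with 95% intervals from limma, ordered by size within each complex; filled points have an unadjusted p below 0.05. Filled points number 10, of which 9 lie above 0 and Atp5pb lies below, and 0 of the 30 genes have an adjusted p below 0.05.

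Set against the same-RNA arrays, the ratios at 4 h and at 20 min address whether HG and HF differed at each time beyond the dye effect, and both comparisons use the same 3 arrays. At 4 h, 0 of the 30 genes passed the test (0.0641% of all features did), and 2 had an unadjusted p below 0.05 (9.97% of all features). The difference was above 0 in 20 genes (66.7%, against 48.5% of all features), with a median of 0.05. At 20 min, 0 genes passed (0.0427% of all features did), and 2 had an unadjusted p below 0.05 (5.21% of all features). There the difference was above 0 in 10 genes (33.3%, against 50.6% of all features), with a median of -0.06. By complex, the difference at 4 h was above 0 in 3 of 6 genes of complex I (median -0.01). It was above 0 in 7 of 9 of complex IV (median 0.13) and in 9 of 14 of complex V (median 0.05). At 20 min it was above 0 in 1 of 6 genes of complex I (median -0.09). For complex IV this count was 4 of 9 (median -0.002), and for complex V it was 4 of 14 (median -0.08).

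Cox5a had the smallest p at 4 h, since its same-RNA values of -0.57, 0.19 and -0.10 lay mostly below the arrays at 4 h. The difference from the same RNA was 0.65 ± 0.17 at 4 h (SE; limma adjusted p = 0.244) and 0.19 ± 0.18 at 20 min. Without 1HG, which gave the lowest of those 3 values, it was 0.44 at 4 h (adjusted p = 0.423). Ndufs6-ps1, given above, was the other gene of the 2 at 4 h. The next smallest p was that of Atp5if1, whose difference of 0.64 ± 0.31 comes with its value on 1HG. Cox8b and Cycs came after it with 0.30 ± 0.15 and 0.31 ± 0.16 (adjusted p = 0.492 for each). The same-RNA values of Cycs were all negative, at -0.12, -0.56 and -0.24, and without 3HG its difference was 0.19.

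At 20 min the 2 genes were both below the same RNA. Atp5mc1 had -0.41 ± 0.13 (SE; limma adjusted p = 0.801), with every 20 min array below every same-RNA array. Ndufa10 had -0.54 ± 0.23 (adjusted p = 0.801), and -0.27 without 1HG, on which it read 0.95. Ndufv2 had -0.19 ± 0.10. The differences of Cox6c-ps1 (-1.06 ± 0.52) and Atp5if1 (0.61 ± 0.33 at 20 min and 0.64 ± 0.31 at 4 h) had the widest errors, and without 1HG they were -0.16 for Cox6c-ps1 at 20 min and 0.07 at 20 min and 0.10 at 4 h for Atp5if1. Over all 30 genes without 1HG, the median was 0.10 at 4 h and -0.01 at 20 min. For the 19 genes with no probe at the low and high probe numbers, the median was 0.10 at 4 h with 13 above 0, and -0.04 at 20 min with 7 above 0. Between 4 h and 20 min these 19 genes had a median of 0.18, with 14 above 0.

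**Figure D5:**
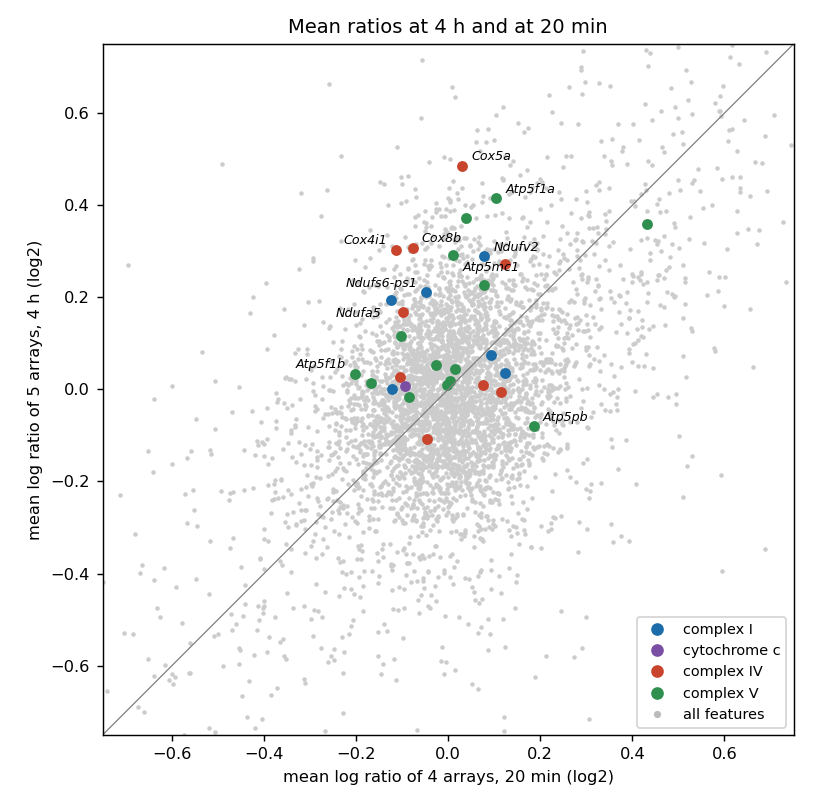
Mean log ratio (log2) of the 5 arrays at 4 h against that of the 4 arrays at 20 min, with the 30 genes coloured by complex over all 4682 features in grey, 162 of which lie outside the axes; the line marks equal means. Of the 30 genes, 23 lie above the line, and the named ones are the 10 with an unadjusted p below 0.05.

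The 4 h arrays scattered by a median SD of 0.2 over the 30 genes and of 0.205 over all features. At 20 min the median SD was 0.12 for the 30 genes and 0.167 for all features, and with the same RNA it was 0.182 and 0.153. The differences between the times had a median SE of 0.128 for the 30 genes and of 0.139 for all features.

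The second array of pair 2 gave Slc2a5 the value -1.66, opposite in sign to the other 5 arrays at 4 h. Swapped dyes would turn the sign of a ratio, but the labels do not say whether they were swapped, and this was not tested. Of the oxidative phosphorylation genes, 10 of 30 (33.3%) lay on the other side of the same-RNA mean from the mean of the 4 h arrays, against 45.2% of all features. On the other side of the 20 min mean lay 12 of the 30 (40%) and 5 of the 10 with an unadjusted p below 0.05, against 50.8% of all features. Of those 10 genes, Atp5f1b read -0.85 on this array, Ndufa5 -0.32, Ndufs6-ps1 -0.29 and Atp5f1a -0.19. The others were positive on it, with Ndufv2 at 0.65, Atp5mc1 at 0.51, Cox5a at 0.37, Atp5pb at 0.23, Cox4i1 at 0.19 and Cox8b at 0.14.

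Other genes of mitochondrial energy metabolism had median differences between the times that ranged by list, with 0 genes passing the test in each list. Citric acid cycle enzymes had 5 of 7 genes above 0 (median 0.21), among them the cytosolic forms Idh1 (0.37 ± 0.14, SE; limma adjusted p = 0.262) and Mdh1 (0.31 ± 0.12; adjusted p = 0.265). Genes of the mitochondrial ribosome and of protein import had 11 of 15 above 0 (median 0.22), with Timm17a, a channel component of the inner membrane, at 0.60 ± 0.19 and Mrps24, a ribosomal protein, at 0.38 ± 0.12. Carriers of nucleotides, phosphate and protons had 7 of 11 above 0 (median 0.02), with the phosphate carrier Slc25a3 at 0.39 ± 0.13 and the uncoupling protein Ucp1 at -0.52 ± 0.18. Mitochondrial redox enzymes had 5 of 8 above 0 (median 0.17), with the thioredoxin Txn2 at 0.22 ± 0.08 and the peroxiredoxin Prdx5 at -0.27 ± 0.14.

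The regulators of mitochondrial biogenesis had 5 of 6 genes above 0 with a median of 0.07. Those with the smallest p were Ppard (0.19 ± 0.11, SE) and Prkaa2 (-0.15 ± 0.10), the 1 gene below 0. Of the assembly factors of complex IV, Cox17, which delivers copper, had 0.17 ± 0.13 and Surf1 had -0.09 ± 0.21. The vacuolar proton ATPase, a related rotary pump outside mitochondria, had 4 of 5 subunits above 0 (median 0.10), with Atp6v1b2 at 0.20 ± 0.09 and Atp6v1f at 0.16 ± 0.09. Other electron donors had 2 of 3 above 0 (median 0.02), with the sulphite oxidase Suox at -0.25 ± 0.20 and the glycerol phosphate dehydrogenase Gpd2 at 0.11 ± 0.24.

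Markers of the cell types of the gut wall and of blood are set beside these genes. Enterocyte markers had 2 of 9 genes above 0 between 4 h and 20 min (median -0.33), and by array their median ranged from -0.47 to -0.14 at 4 h, -0.16 to -0.04 at 20 min and -0.09 to 0.00 with the same RNA. Smooth muscle markers had 1 of 7 above 0 (median -0.11), among them calponin Cnn1 at -0.47 ± 0.18 (SE; limma adjusted p = 0.274), and striated muscle markers had 2 of 8 above 0 (median -0.05). Red blood cell markers had 3 of 3 above 0 (median 0.30), enteric neuron and glia markers 8 of 13 (median 0.01) and immune markers 4 of 7 (median 0.02). None of these markers passed the test, and their part in the result was not tested. Medians were below 0 in both muscle lists and the enterocyte list. They were above 0 in the red blood cell, neuron and glia, and immune lists, and in the 30 genes.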

How the data were processed

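The 14 arrays of 2 colours came as 1 deposited table, whose ratios of 4952 probes (0 missing) were taken to be log2 values. The authors' scanner, background correction, normalization, logarithm base and ratio direction were not given in the sources used here, so scale, centring and direction of the deposited values are unknown. Base 2 is an assumption: another base would rescale every difference and leave signs, p-values and counts of calls as they are. The medians of the 14 columns ran from -0.07 to 0.02 as deposited. Without intensities, which were not analysed here, dim probes stayed in, and the number of arrays limits the precision.

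Symbols came from the platform annotation, where 4426 probes have 1 symbol, 2 have several and 524 have none listed, and 29 of the 30 genes matched RefSeq (GRCr8) by Entrez identifier. Each array was centred on its median and probes of 1 symbol were averaged. A single fit in limma 3.58.1 (R 4.3.3, lmFit and eBayes) took 12 arrays in 3 groups, with 9 residual degrees of freedom. Calls needed a p below 0.05 after Benjamini-Hochberg adjustment over all 4682 features, and an adjusted p in the text is from this fit. Exceptions are the single probes of Cox6c, from a fit of all 4952 probes, and values given without an array, from the fit without it. The steps were tested on simulated data.

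The genes, the lists and the tests were chosen with earlier results of these data known, and no list was tested as a set. Named are the 5 genes with the smallest p in each comparison, the 2 of each complex between 4 h and 20 min, genes with several probes, muscle-type isoforms with their partners, and up to 2 genes of each other list. The values of Ndufv3, Cox5b and the remaining complex V genes were added after they were seen, so that each measured gene is accounted for. Alternatives covered scaling, centring, probe averaging, array weights, robust variance, the second array of pair 2, the same-RNA arrays, each array left out in turn and a replicate block.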

Additional observations from a re-analysis of the deposited data

Results flagged for a closer look

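Over 66 sets of values (those of the 30 genes, of their median and of the medians of complexes IV and V, at 4 h and at 20 min), 3 had 1 array far from the others, and chance gives about 1 in 20. Cox5a read 0.07 on 4 h replicate 2, where the other 4 arrays at 4 h read 0.53 to 0.67. Cox6a1 read -0.38 on 4 h replicate 4, where the others read 0.03 to 0.15. Ndufa5 read 0.46 on 4 h replicate 3, where the others read 0.10 to 0.19. The 3 values come from 3 different arrays.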

How the results depend on the processing

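Between 4 h and 20 min the median of the 30 genes stayed above 0 under every setting run (0.107 to 0.154, and 0.118 to 0.19 with each array left out in turn), with 20 to 25 genes above 0. With each array left out, 0 to 1 of the 30 genes passed, the 1 being Cox4i1 without 4 h replicate 5. Features called, 28 in all, numbered 16 with arrays scaled to 1 spread, 18 with the second array of pair 2 averaged in with its sign turned, 0 with it averaged in as deposited, and 4 to 43 with each array left out. With the same-RNA arrays not used and ratios tested against 0, 763 features at 4 h (16.3%) and 384 at 20 min (8.2%) passed, and of the 30 genes 8 at 4 h (Atp5f1a, Ndufv2, Cox5a, Atp5mc2, Cox4i1, Atp5mc1, Ndufs6-ps1 and Cox8b) and 1 at 20 min (Atp5mc2). Several of these probes also read above 0 with the same RNA. Against the same RNA, the features called at 4 h (3) numbered 0 with the second array as deposited and 2 to 5 with each array left out. Those at 20 min (2) numbered 0 with arrays scaled, with only the groups compared, and with the second array as deposited, sign turned or mirrored about the same-RNA mean, the last chosen after seeing the data, and 0 to 4 with each array left out.

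At 20 min against the same RNA, several values changed sign between settings. The median of the 30 genes was 0.00 (0.000744) against 0 and -0.127 to 0.0147 with each array left out (above 0: 8 to 16 genes), positive without 3HF. The complex IV median was 0.0166 with arrays scaled, 0.0072 with array weights and -0.0439 to 0.0551 with each array left out. The complex V median was 0.00735 against 0 and -0.131 to 0.00839 with each array left out. Tested against 0, without the same-RNA arrays, Atp5mc1 was 0.0109 and Ndufv2 0.0784, where the main values were -0.41 and -0.19. At 4 h the complex V median was -0.00527 with the second array as deposited and -0.000536 to 0.0904 with each array left out. Between the times, Ndufaf3 ran from -0.138 to 0.0185 and Cox6a1 from -0.146 to 0.0284 over single arrays left out. Causes were not tested.

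Replicate numbers 1 to 4 occur at both times, and the values showed no pairing by number. In their deviations from the group mean, same-numbered arrays correlated at -0.0652 to 0.16 across features. Of the 4 h arrays, 1 of 4 correlated best with its own number. With so few arrays this cannot exclude a pairing. With the replicate block, 22 features and 0 of the 30 genes passed, the median of the 30 was 0.154 and that of complex IV 0.22. With 5, 4 and 3 arrays and no intensities, small shifts of single genes could not be told from spread.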
